A study of Mus musculus with 6 samples.

Results

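The 10 genes described here encode kinases, cyclins and a phosphatase that drive cells through division: the cyclins Ccna1, Ccna2, Ccnb1 and Ccnb2, the cyclin-dependent kinase Cdk1, its activating phosphatase Cdc25c, the Polo kinase Plk1 and the Aurora kinases Aurka, Aurkb and Aurkc. They were chosen by symbol, and all 10 were found among the 21310 Ensembl genes of the deposited mRNA count table. mRNA was measured in pachytene spermatocytes of mouse testes, the cells in the long middle stage of meiotic prophase, in 1 Alkbh1-/- library and 1 wild-type (WT) library. The Alkbh1-/- mice lack exon 6 of Alkbh1, which encodes an AlkB-family dioxygenase, and were backcrossed onto C57/BL6. The sources used here do not give the age or number of mice or how the cells were isolated. Polyadenylated RNA was selected from 1.6 µg of Alkbh1-/- RNA and from 1 µg of WT RNA, in each case of RNA longer than 200 nt, and read as 75 bp paired ends.

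Entry into a meiotic or mitotic division is driven by CDK1 bound to a cyclin. The complex is held inactive by inhibitory phosphates, which WEE1 and MYT1 kinases add and CDC25 phosphatases remove. Polo and Aurora kinases then act on centrosomes, the spindle and the attachment of chromosomes to it. In the male germ line the A-type cyclin CCNA1 is needed for the first meiotic division, and spermatocytes make and store many division mRNAs during pachytene, well before they divide.

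The count tables summed to 10229260 reads in Alkbh1-/- and 8222671 in WT, and values are given as CPM (counts relative to the library total) after TMM scaling. With 1 library per genotype there is no test and no measure of the spread between animals. Intervals on ratios are exact 95% intervals that cover counting error only, with each read taken as independent. PCR copies are not independent molecules, so the intervals may be too narrow even for counting error. Log2 folds are log2((Alkbh1-/- CPM + 1)/(WT CPM + 1)), a scale on which low genes move less. Counts of genes past 1.5-fold or 2-fold are read on this scale throughout, while printed ratios carry no pseudocount. The background is the 12189 genes that reached 5 CPM in either library, and all 10 division genes were among them, Ccna2 through the Alkbh1-/- library only. A read count also grows with the length of a transcript, and no transcript lengths were at hand. CPM is therefore compared for each gene between the genotypes and not between genes.

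The pachytene label was set beside fixed marker genes. All 17 pachytene markers were over 5 CPM in at least 1 library and none differed by 1.5-fold. These values do not measure purity, and Crem is also on the round spermatid list. The 12 elongating spermatid markers summed to 4719 CPM in Alkbh1-/- and 4139 CPM in WT. Ldhc, the germ cell lactate dehydrogenase, had 4234 CPM in Alkbh1-/- and 4918 CPM in WT. Ybx2, a germ cell RNA-binding protein, had 2400 CPM in Alkbh1-/- and 2395 CPM in WT. RNA of Sertoli cells, the somatic nurse cells of the tubule, was present in both libraries: 18 matched markers summed to 1835 CPM in Alkbh1-/- and 3614 CPM in WT, none at 0. In bulk RNA, fewer cells of a type and less RNA per cell cannot be told apart. Alkbh1 itself had 20.2 CPM in Alkbh1-/- and 21.0 CPM in WT; this gene-level count cannot show whether exon 6 was missing.

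The division genes differed little between the genotypes. Of the 10, only Cdc25c was at least 1.5-fold higher in Alkbh1-/-, and 0 were at least 1.5-fold lower. Among all 12189 genes, the share past 1.5-fold was 8.06% upward and 8.79% downward, so 1 of 10 is near the background. At 2-fold no division gene was past in either direction, against 1.8% of all genes higher and 2.71% lower. The median log2 fold of the 10 genes was -0.15, beside -0.02 for all genes. By sign, 8 were lower in Alkbh1-/- and 2, Cdc25c and Ccna2, were higher; 52.1% of all genes were lower. The counting interval lay above a ratio of 1 for 1 gene and below 1 for 3 genes, Ccna1, Cdk1 and Aurka. Such intervals lay above 1 for 23.7% of all genes and below 1 for 26.8%, so neither count stands away from the background.

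**Figure D1:**
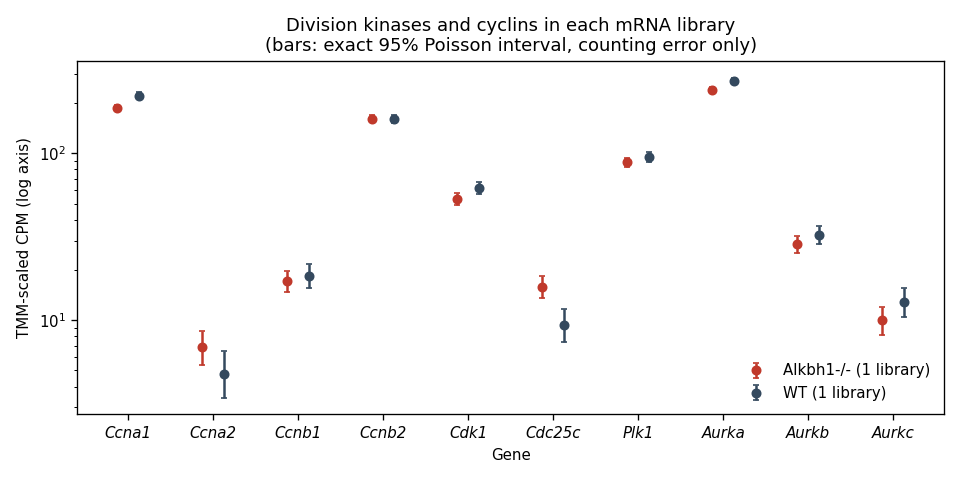
CPM of each division gene (log axis) in the Alkbh1-/- library (red, left of each pair) and the WT library (dark blue, right), with exact 95% Poisson intervals that cover counting error only. The paired intervals do not overlap for Cdc25c, which is higher in Alkbh1-/-, nor for Ccna1 and Aurka, which are lower; those of Ccnb2 nearly coincide.

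CCNA1 is the A-type cyclin of the male germ line, and mouse males without it do not complete the first meiotic division. Ccna1 (ENSMUSG00000027793) had 1934 counts, 187 CPM, in Alkbh1-/- and 1798 counts, 221 CPM, in WT. Its CPM ratio was 0.846 (interval 0.793 to 0.903). The interval lay below 1, and the difference was less than 1.5-fold.

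CCNA2 is the A-type cyclin of dividing somatic cells and of mitotic germ cells, where it acts in S phase and on entry into mitosis. Ccna2 (ENSMUSG00000027715) had 71 counts, 6.87 CPM, in Alkbh1-/- and 39 counts, 4.79 CPM, in WT. The ratio was 1.43 (interval 0.956 to 2.18) and the log2 fold 0.44. Its interval includes 1, so a difference was not detectable at this depth.

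The point ratios of the A-type cyclins therefore lay on opposite sides of 1, though the interval of Ccna2 includes 1. The ratio of Ccna1 to Ccna2 counts does not depend on how the libraries are scaled. It was 27.2 in Alkbh1-/- and 46.1 in WT, and the first value divided by the second was 0.591 (conditional exact interval 0.387 to 0.891). The count ratio was thus lower in the Alkbh1-/- library, with counting error only in its interval. The quotient restates the single-gene ratios and is no separate support. It rests on the 71 and 39 counts of Ccna2, which passed the 5 CPM floor through the Alkbh1-/- library only. Ccna2 is used by dividing cells of any type, so the fixed markers of S phase and mitosis are set beside it. Of 15 measured, 2 were at least 1.5-fold higher and 1 lower, and none was at 0. They summed to 1516 CPM in Alkbh1-/- and 1538 CPM in WT. Of 8 spermatogonial markers over 5 CPM, 3 were higher and 0 lower, and the 13 matched summed to 158 CPM in Alkbh1-/- and 153 CPM in WT. The part of dividing germ cells in the Ccna2 value was not tested.

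B-type cyclins activate CDK1 for entry into division. CCNB1 is essential in mice, whereas mice without CCNB2 are viable and fertile. Ccnb2 (ENSMUSG00000032218) was the member closest to equal, with 1662 counts, 161 CPM, in Alkbh1-/- and 1311 counts, 161 CPM, in WT. The ratio was 0.998 (interval 0.927 to 1.07). Ccnb1 (ENSMUSG00000041431) had 177 counts, 17.1 CPM, in Alkbh1-/- and 150 counts, 18.4 CPM, in WT, a ratio of 0.929 (interval 0.743 to 1.16). The ratio of Ccnb1 to Ccnb2 counts was 0.106 in Alkbh1-/- and 0.114 in WT, a quotient of 0.931 (interval 0.735 to 1.18).

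Counts of Ccnb1 are uncertain, because the mouse genome holds a related copy, Ccnb1-ps, which RefSeq lists as a transcribed pseudogene. Ccnb1-ps had 263 counts in Alkbh1-/- and 179 in WT, beside 177 and 150 for Ccnb1. Without transcript lengths these counts do not rank the levels of the gene and its copy. The sources used here do not say how the counting divided reads between them. Ccnb1-ps had a ratio of 1.16 (interval 0.953 to 1.41), on the other side of 1 from Ccnb1. Summed, Ccnb1 and Ccnb1-ps had 42.6 CPM in Alkbh1-/- and 40.4 CPM in WT, a ratio of 1.05 (interval 0.910 to 1.22). The sign of the small Ccnb1 difference thus turns with the treatment of the copy.

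CDK1 is the kinase that these cyclins activate. Cdk1 (ENSMUSG00000019942) had 552 counts, 53.4 CPM, in Alkbh1-/- and 505 counts, 62.1 CPM, in WT. Its ratio was 0.860 (interval 0.761 to 0.972), so the interval lay below 1 and the difference was within 1.5-fold. With scaling to the pachytene markers the ratio was 0.899 and the interval included 1 (0.795 to 1.02). The ratio of Ccnb1 to Cdk1 counts was 0.321 in Alkbh1-/- and 0.297 in WT, a quotient of 1.08 (interval 0.835 to 1.40). With Ccnb1 counted alone, a difference in the proportion of the cyclin B1 message to that of its kinase partner was thus not detectable. Ccnb1 and Ccnb1-ps together had 440 counts in Alkbh1-/- and 329 in WT, and the ratio of this sum to Cdk1 was not computed. The pair values of Ccnb1 with Cdk1 and with Ccnb2 therefore hold only for Ccnb1 as counted, without the copy.

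CDC25C removes the inhibitory phosphates from CDK1, and mice without it are viable and fertile. Cdc25c (ENSMUSG00000044201) had 164 counts, 15.9 CPM, in Alkbh1-/- and 76 counts, 9.34 CPM, in WT. Its ratio was 1.70 (interval 1.29 to 2.26) and its log2 fold 0.71, higher than that of 94.6% of the genes counted. At a mean of 5 to 20 CPM, a range set after the value was seen that also holds Cdc25c, 11.2% of 4142 genes were past 1.5-fold upward and 12% downward. Above 100 CPM these shares were 1.66% and 2.41%. Folds past 1.5 were thus not rare at that level. The share of those genes with a fold as large as that of Cdc25c was not measured. With a pseudocount of 5 CPM the log2 fold was 0.54 and no longer past 1.5-fold.

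Relative to its substrate, the Cdc25c message was also higher. The ratio of Cdc25c to Cdk1 counts was 0.297 in Alkbh1-/- and 0.150 in WT, a quotient of 1.97 (interval 1.45 to 2.70). Of the 6 pairs of members compared in this way, Ccna1 with Ccna2 and Cdc25c with Cdk1 had intervals that exclude 1. No such share was measured over pairs of all genes, so this count has no background. Each of these pairs holds Ccna2 or Cdc25c, the members with ratios above 1, and so restates their single-gene ratios.

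Spermatid markers also differed between the libraries. Past 1.5-fold, 8 of 14 round spermatid markers over 5 CPM were higher in Alkbh1-/- and 0 were lower, and they summed to 1601 CPM in Alkbh1-/- and 1154 CPM in WT. Their most abundant genes were Zpbp, an acrosome protein with a log2 fold of 0.22, and Acr, the acrosomal protease acrosin, with 0.07. Of 11 early prophase markers over 5 CPM, 3 were higher and 0 lower; 2 of these 3 reached 5 CPM in the Alkbh1-/- library only, so the floor itself favours this direction for them. The 13 matched summed to 1243 CPM in Alkbh1-/- and 1049 CPM in WT. No marker of these lists was at 0 in either library. The part of these cells in the Cdc25c value was not tested.

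**Figure D2:**
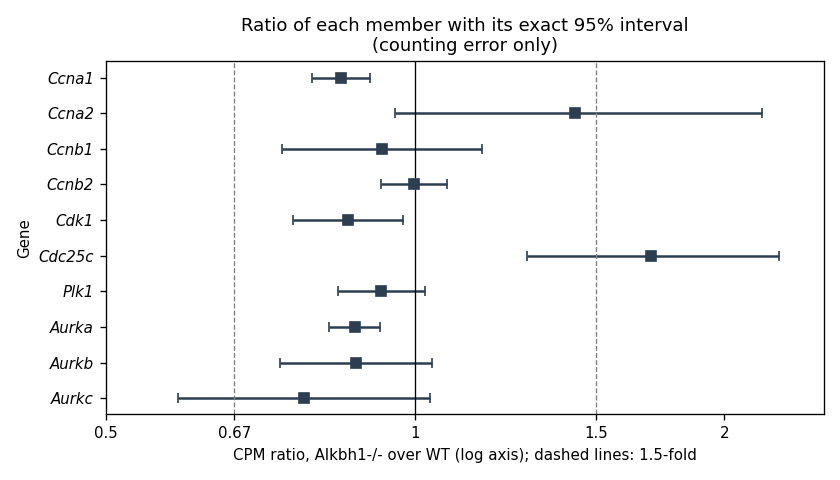
CPM ratio of Alkbh1-/- over WT (log axis) for each division gene, with its exact 95% interval from the counts; dashed lines mark 1.5-fold. The point of Cdc25c (1.70) lies beyond the upper dashed line, the interval of Ccna2 spans 1, and the other 8 points lie between 0.779 and 0.998.

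PLK1, the Polo kinase, acts at centrosomes and the spindle and takes part in the exit from pachytene. Plk1 (ENSMUSG00000030867) had 911 counts, 88.1 CPM, in Alkbh1-/- and 773 counts, 95.01 CPM, in WT. Its ratio was 0.927 (interval 0.842 to 1.02), which includes 1.

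All 3 Aurora kinases had ratios below 1, and the interval excluded 1 for Aurka only. AURKA works at spindle poles, AURKB in the chromosomal passenger complex at centromeres, and AURKC is a germ cell paralog of AURKB that can join the same complex. Aurka (ENSMUSG00000027496) had 2464 counts, 238 CPM, in Alkbh1-/- and 2220 counts, 273 CPM, in WT, with a ratio of 0.873 (interval 0.824 to 0.925). Aurkb (ENSMUSG00000020897) had 294 counts, 28.4 CPM, in Alkbh1-/- and 264 counts, 32.5 CPM, in WT, with a ratio of 0.876 (interval 0.740 to 1.04). Aurkc (ENSMUSG00000070837) had 103 counts, 9.96 CPM, in Alkbh1-/- and 104 counts, 12.8 CPM, in WT. Its ratio of 0.779 (interval 0.588 to 1.03) was the lowest of the 10 genes, and the interval includes 1.

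The balance of the Aurka and Aurkb messages was close to the same in the 2 libraries. The ratio of Aurka to Aurkb counts was 8.38 in Alkbh1-/- and 8.41 in WT, a quotient of 0.997 (interval 0.832 to 1.19). The ratio of Aurkc to Aurkb counts was 0.350 in Alkbh1-/- and 0.394 in WT, a quotient of 0.889 (interval 0.638 to 1.24). The second interval is wide, so it does not show that the balance of the germ cell paralog was unaltered.

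**Figure D3:**
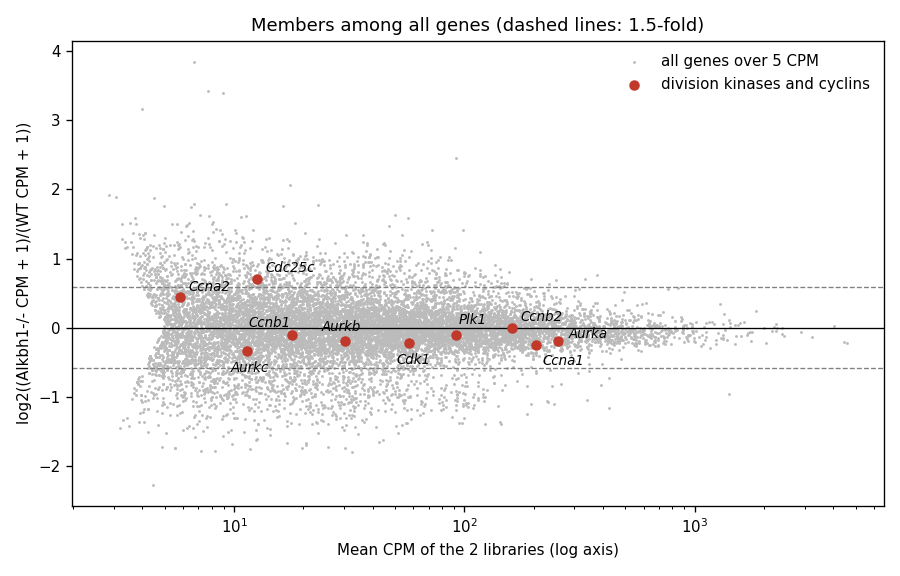
Log2 fold of Alkbh1-/- over WT (vertical axis, CPM with a pseudocount of 1) against mean CPM of the 2 libraries (log axis) for all 12189 genes over 5 CPM (grey) and the 10 division genes (red); dashed lines mark 1.5-fold. The spread of all genes widens toward low CPM, where Cdc25c (log2 fold 0.71) and Ccna2 (0.44) lie, and the 8 other members lie between -0.33 and -0.0035.

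Promoters are shown for some members because several of these genes carry elements known from cell cycle promoters. The CCAAT box is bound by the factor NF-Y, and the cell cycle genes homology region (CHR) by the MuvB complex, which works with MYB proteins, among them the pachytene regulator MYBL1 (A-MYB). RefSeq promoter windows of 300 bases, with 250 before and 50 after the start (GRCm38.p6), were found for 7 members; those of Ccna2, Cdc25c and Aurkb were not used here. The last 150 bases before the start are printed for the germ line cyclin, both B-type cyclins, their kinase and Aurka, in the gene's direction, with matches in capitals: CCAAT or its reverse complement ATTGG, the CHR TTTGAA or TTCAAA, and the MYB core AACGG or CCGTT. No matches overlapped.
Ccna1: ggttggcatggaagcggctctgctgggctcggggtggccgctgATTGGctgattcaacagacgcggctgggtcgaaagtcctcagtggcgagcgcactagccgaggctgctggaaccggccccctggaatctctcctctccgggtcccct
Ccnb1: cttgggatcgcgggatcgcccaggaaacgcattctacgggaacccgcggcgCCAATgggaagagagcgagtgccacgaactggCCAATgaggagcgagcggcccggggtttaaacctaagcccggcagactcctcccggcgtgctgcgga
Ccnb2: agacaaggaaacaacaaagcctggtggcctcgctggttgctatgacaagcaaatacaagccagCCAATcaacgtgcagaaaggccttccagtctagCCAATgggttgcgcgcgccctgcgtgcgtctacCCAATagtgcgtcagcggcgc
Cdk1: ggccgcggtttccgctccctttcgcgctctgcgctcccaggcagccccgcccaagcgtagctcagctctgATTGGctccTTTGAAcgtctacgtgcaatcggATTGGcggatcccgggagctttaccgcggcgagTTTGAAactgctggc
Aurka: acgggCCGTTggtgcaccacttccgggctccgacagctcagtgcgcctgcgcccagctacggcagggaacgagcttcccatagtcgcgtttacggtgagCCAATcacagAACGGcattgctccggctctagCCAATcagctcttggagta

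These stretches lie on the minus strand at chr3:55055056-55055205 for Ccna1, chr13:100786487-100786636 for Ccnb1, chr9:70421555-70421704 for Ccnb2, chr10:69352913-69353062 for Cdk1 and chr2:172370571-172370720 for Aurka. Over the whole 300-base windows, searched on both strands, all 7 members held a CCAAT box, as did 37.4% of the 32851 windows in the table. A CHR match (TTTGAA or TTCAAA) was found in 4 of 7 (Ccnb2, Cdk1, Plk1 and Aurka) and in 17.9% of all windows. The same 4 held a CCAAT box and a CHR together, as did 6.95% of all windows. The MYB core was found in Aurka and Ccnb1 and in 17.4% of all windows.

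Cdk1 had 3 CCAAT boxes, at positions -208, -80 and -48 from the start, and a CHR at -71 and -15. Ccnb2 had CCAAT boxes at -87, -54 and -21 and a CHR at -167 and 5. The window of Ccna1, the germ line cyclin, held a single CCAAT box at -107 and neither of the other motifs, and that of Aurkc, the germ cell Aurora kinase, a single one at 25. The 4 genes with both elements had ratios from 0.860 (Cdk1) to 0.998 (Ccnb2). The 3 windows without TTTGAA or TTCAAA belong to Ccna1 (0.846), Ccnb1 (0.929) and Aurkc (0.779). No other form of the CHR or of the MYB core was searched for, so windows without a match are not shown to lack such an element. The members with ratios above 1, Cdc25c and Ccna2, had no window here, so no relation of motif to ratio can be read from these values. A match describes these letters only and says nothing of binding in these cells.

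**Figure D4:**
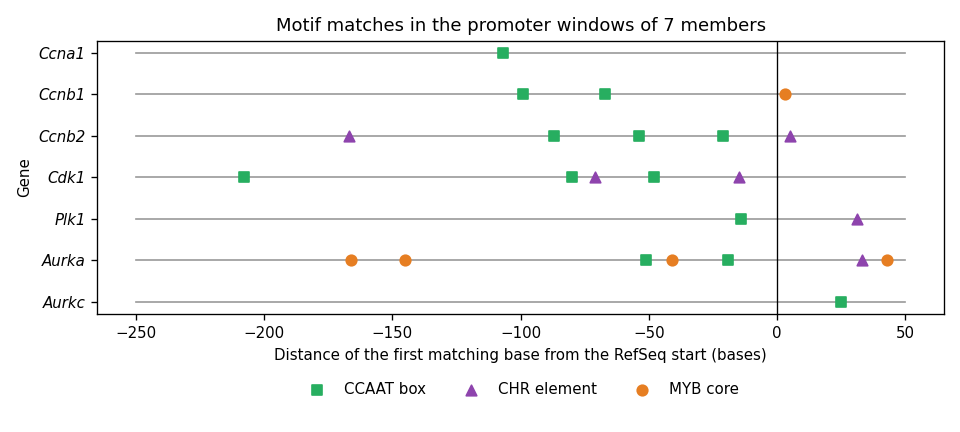
Position of the first base of each motif match relative to the RefSeq start (horizontal axis, in bases; vertical line at the start) in the windows of 7 members. CCAAT boxes (green squares) are repeated before the start of Ccnb1, Ccnb2, Cdk1 and Aurka, and CHR matches (purple triangles) occur in Ccnb2, Cdk1, Plk1 and Aurka.

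The genes around the members were taken from 5 lists. Of 88 list genes matched, 80 were over 5 CPM; past 1.5-fold, 3 were higher in Alkbh1-/- and 5 were lower. These are 3.75% and 6.25%, set beside 8.06% and 8.79% of all genes; the difference from all genes was not tested. Their median log2 fold was -0.02.

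Among other cyclins and CDKs, 1 of 14 was higher and 1 lower, with a median of -0.04. Ccnd3, a D-type cyclin of G1 phase, had 51.7 CPM in Alkbh1-/- and 31.7 CPM in WT (ratio 1.63, interval 1.40 to 1.90). Cdk5, a CDK known mainly from neurons, had 24.8 CPM in Alkbh1-/- and 48.8 CPM in WT (ratio 0.507, interval 0.432 to 0.595).

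Among the brakes and activators of CDK1, 1 of 13 was higher and 2 were lower, with a median of -0.0020. With a pseudocount of 5 CPM, 0 were higher and 1 was lower, and with a floor of 20 CPM both counts were 0. Scaling to the pachytene markers gave 2 higher and 2 lower. Chek1, the checkpoint kinase that inhibits CDC25 phosphatases, had 10.35 CPM in Alkbh1-/- and 5.90 CPM in WT (ratio 1.75, interval 1.24 to 2.52). The CDK inhibitors Cdkn1a (p21) and Cdkn1b (p27) were lower. Cdkn1a had 9.58 CPM in Alkbh1-/- and 16.5 CPM in WT, a log2 fold of -0.72, and Cdkn1b had 8.51 CPM in Alkbh1-/- and 17.2 CPM in WT, a log2 fold of -0.94. Sertoli cells also use Cdkn1b, and Sertoli markers were lower in Alkbh1-/-. Of 17 over 5 CPM, 15 were at least 1.5-fold lower and 0 higher. Of these 15, 2 reached 5 CPM in the WT library only, so the floor itself favours this direction for them. The most abundant Sertoli markers were Clu (clusterin), with a log2 fold of -0.95, and Amhr2, the receptor of anti-Müllerian hormone, with -1.04. The part of Sertoli RNA in these values was not tested.

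The other regulators of the inhibitory phosphates, named after their values were seen, are set beside Cdc25c. Cdc25a had 83.8 CPM in Alkbh1-/- and 82.7 CPM in WT (ratio 1.01, interval 0.914 to 1.12), and Cdc25b had 20 counts in each library, below 5 CPM. The opposing kinases Wee1 (ratio 1.17, interval 1.01 to 1.34) and Pkmyt1, which encodes MYT1 (1.18, interval 1.06 to 1.302), were within 1.5-fold. The size of the Cdc25c difference was therefore not seen in Cdc25a, whose interval lies wholly below that of Cdc25c.

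Among Aurora and Polo partners, 0 of 14 were higher and 2 were lower, with a median of -0.06. Ajuba, a LIM protein that activates AURKA, had 15.8 CPM in Alkbh1-/- and 29.9 CPM in WT (log2 fold -0.88). Plk2, a Polo kinase of G1 phase and stress responses, had 14.1 CPM in Alkbh1-/- and 22.7 CPM in WT (log2 fold -0.65). In the spindle checkpoint and the anaphase-promoting complex, the ubiquitin ligase that ends division, 0 of 22 genes were past 1.5-fold in either direction. The median was -0.04 and the furthest was the ligase subunit Anapc10, with a log2 fold of 0.52. Among transcription regulators of division genes, 1 of 18 was higher and 0 lower, with a median of 0.08. The higher count was 2 with total counts, upper quartile, pachytene marker scaling or a pseudocount of 0.1 CPM, and 0 with a floor of 20 CPM. The gene past 1.5-fold with TMM scaling was Mybl2 (B-MYB), the MYB protein of proliferating cells, with 17.9 CPM in Alkbh1-/- and 9.71 CPM in WT (ratio 1.84, interval 1.41 to 2.43).

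**Figure D5:**
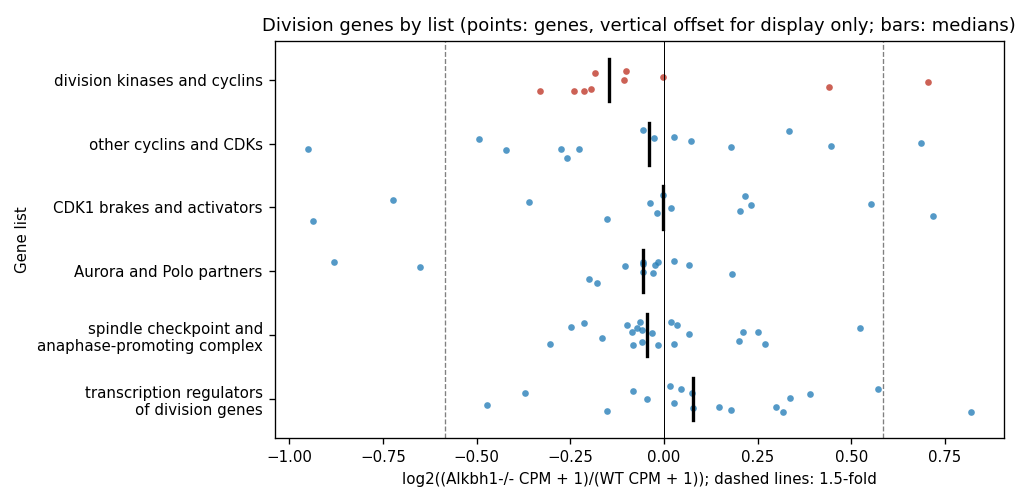
Log2 fold of Alkbh1-/- over WT (horizontal axis, CPM with a pseudocount of 1) for the 10 division genes (red) and the genes of 5 related lists over 5 CPM (blue); each point is a gene, black bars are medians and dashed lines mark 1.5-fold. Medians lie between -0.15 for the division genes and 0.08 for the transcription regulators, and all 22 genes of the checkpoint and anaphase list lie within 1.5-fold.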

How the data were processed

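The authors deposited whole-number read counts per Ensembl gene for 1 Alkbh1-/- and 1 WT mRNA library. The submitters' processing notes name CASAVA 1.3, Novoalign, TopHat, bedtools and mm9 but give no roles. The sources used here state neither the counting tool nor its use of strand, so reads of overlapping or antisense genes cannot be told apart. Of 21310 identifiers, 19848 (93.1%) matched a symbol. The 4 small RNA libraries of the series were not used here. Counts were scaled with TMM (edgeR 4.0.16, R 4.3.3). Ratio intervals are Clopper-Pearson on the share of both counts with scaling taken as fixed. Pair quotients use the conditional exact odds ratio (scipy 1.17.1, Python 3.11.15). Ratio intervals and folds were run on simulated Poisson counts as a check of the code. Those counts hold no PCR copies or spread between animals, so the check cannot show that the intervals suit these libraries. The members and lists were chosen with earlier results of these data known. In each list, genes past 1.5-fold were named, at most 4 per direction, or else the furthest from 0, and of markers the most abundant. Speedya, Cdkn2d, Haspin, Bub3 and Ttk were not matched and not analysed here. Marker lists of Leydig, peritubular and endothelial, blood and elongating spermatid cells were also measured. Of these, 5 of 9, 3 of 6, 0 of 0 and 4 of 12 genes over 5 CPM were at least 1.5-fold higher, and 1, 1, 0 and 0 lower. The floor favours such counts where a gene reaches it only in the library where it is high, as did 1 of the 5 Leydig genes and all 3 peritubular and endothelial genes called higher. The 1 peritubular and endothelial gene called lower reached it in the WT library only.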

Additional observations from a re-analysis of the deposited data

How the results depend on the processing

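The count of division genes at least 1.5-fold higher in Alkbh1-/- was 1 (Cdc25c) under DESeq2 size factors (DESeq2 1.42.0), total counts, upper quartile scaling, scaling to the pachytene markers, a pseudocount of 0.1 CPM and no floor. It was 0 with a pseudocount of 5 CPM, with a floor of 20 CPM, which leaves Cdc25c out, and at 2-fold. The count of lower genes was 0 in all 9 alternatives. Under the 4 other scalings the counting intervals of Ccna1, Aurka and Cdc25c still excluded 1; that of Cdk1 included 1 with the pachytene markers. The median stayed below 0, between -0.19 and -0.08. Ccnb2, close to equal, ranged from -0.01 to 0.06 and so changed sign with the scaling; Cdc25c ranged from 0.54 to 0.76 and Ccna2 from 0.28 to 0.51. The remaining members were below 0 in the 6 alternatives of scaling and pseudocount. Scaling moved the median of all genes to between -0.02 and 0.05. In the related lists, 18 of 90 recomputed counts moved by more than 1.5 times, each by 1 or 2 genes. No paired analysis was possible because each genotype has 1 mRNA library, and leaving out a library leaves no comparison. Depth limits Ccna2 most, with 71 counts in Alkbh1-/- and 39 in WT.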

Other observations

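Genes of the lists just under 1.5-fold on the log2 scale with a pseudocount of 1 CPM, named after their values were seen, included Bora, the cofactor through which AURKA activates PLK1. Bora had 1079 counts, 104 CPM, in Alkbh1-/- and 576 counts, 70.8 CPM, in WT, a ratio of 1.47 (interval 1.33 to 1.63). The kinases on either side of it, Aurka (0.873) and Plk1 (0.927), had ratios below 1. E2f5, an E2F factor of resting and differentiating cells, had 11.8 CPM in Alkbh1-/- and 7.62 CPM in WT, a log2 fold of 0.57 on that scale and a ratio of 1.55 without the pseudocount (interval 1.13 to 2.14). Hspa2, the chaperone that mouse spermatocytes need to assemble CDK1 with cyclin B1, had 2267 CPM in Alkbh1-/- and 2270 CPM in WT, a log2 fold of -0.0020.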
